A study of Xenopus tropicalis with 17 samples.

Results

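The astl3 genes of the frog Xenopus tropicalis encode astacin-like proteases. They were taken here as every gene whose name starts with astl3, and there were 5 of them among the 26531 gene names counted: astl3a.1, astl3a.3, astl3b.2, astl3b.4 and astl3c. The family was chosen by a measured value, the fall of astl3b.2 in null embryos against wild type at stage 25, which stood out among all falls. That contrast is therefore given below as a description with no test, and nothing is supported with it. All 5 genes had enough reads to be tested.

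RNA of whole embryos was sequenced at stages 15, 25 and 35. The embryos carried 1 of 3 genotypes (wild type, heterozygous, null) of sf3b4, a gene for a subunit of the SF3b splicing complex. Each of the 17 libraries came from its own pool of 5 embryos, with 2 pools in 8 of the 9 groups and 1 pool of stage 15 nulls, which therefore entered no test. No drug or other treatment was applied in any group, the labels do not describe the mutation, and they do not say whether the pools of a group came from separate crosses, so p-values measure only the spread between pools. In bulk RNA from whole embryos, fewer cells that express a gene and less RNA per cell cannot be told apart.

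Astacins are secreted zinc metalloproteases that are made with an inhibitory prodomain and cut proteins outside the cell. The family includes bmp1 and the tolloids, which cleave chordin and so release BMP ligands, and process procollagens. It also includes hatching enzymes, which soften the egg envelope so that the embryo can leave it. In Xenopus the best known of these is made by the hatching gland, a set of surface cells that form at the border of the anterior neural plate. That enzyme, known as uvs.2 or xhe, is listed as astl2c in the tables. The substrates of the individual astl3 proteins are not stated in the sources used here.

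Library totals ran from 11714437 to 21639041 counts. Levels are given as CPM, counts scaled to the library total after its TMM scaling. They are not divided by transcript length, so sums over genes, shares of such sums and ratios between genes also depend on transcript lengths. Apart from these, levels of different genes are not compared. Expression of sf3b4 itself at stage 25 was 144 and 146 CPM in wild type, 110 and 125 in heterozygotes and 110 and 113 in nulls (log2 -0.38 for null against wild type, SE 0.20, adjusted p = 0.433). At stage 35 the wild type pools, at 83.6 and 107 CPM, overlapped the heterozygotes, at 93.2 and 64.5, and lay above the nulls, at 74.8 and 80.1. Pools of 1 group were far apart in places. The wild type pools of stage 15 differed 17.01-fold in astl3a.1 and 51.2-fold in astl3a.3, with pool 2 higher. The wild type pools of stage 35 differed between 2.58-fold and 5.51-fold in the 5 genes, with pool 1 higher in each. For the main results that rest on these pools, values with a pool left out are given beside them.

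In a RefSeq gene table of the assembly UCB_Xtro_10.0, used for names and gene order only, the 5 genes lie in 1 cluster that spans 8 genes from the first member to the last. The order is astl3a.1, astl3a.3, then astl3b.2, astl3b.4 and astl3c. The cluster is on the chromosome that holds sf3b4, with 241 other genes between sf3b4 and the nearest member and 3675 genes on the chromosome. The 10 astl2 genes lie on 1 other chromosome. As close copies can share reads and the rule for counting such reads is not given in the sources used here, the split of reads between neighbouring astl3 genes is uncertain.

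At stage 15 astl3b.2, astl3b.4 and astl3c were close to the limit of counting, and astl3a.1 and astl3a.3 were low in most pools. The gene astl3b.2 had 0 and 2 counts in the wild type pools, 0 and 1 in the heterozygotes and 0 in the null pool. Its neighbour astl3b.4 had 0 and 4, 0 and 2, and 3 counts in the same groups, and astl3c had at most 9 counts in any pool. Expression of astl3a.1 stood at 1.94 and 33.0 CPM in wild type, 2.05 and 2.56 in heterozygotes and 4.66 in the null pool. Only the second wild type pool stood well above the others, and it was also high in astl3a.3, at 8.26 CPM against 0.162 in the first.

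The 4 genes other than astl3b.2 all rose in wild type from stage 15 to stage 25, where 40.3% of the 17742 genes tested changed and 23.4% rose. Wild type astl3a.1 reached 356 and 311 CPM at stage 25, and it rose by 4.28 on the log2 scale (SE 0.82, adjusted p = 0.000829, edgeR's quasi-likelihood test with Benjamini-Hochberg adjustment, as for all adjusted p-values below unless another tool is named). For astl3a.3 the wild type pools reached 205 and 230 CPM, a 54.8-fold rise (log2 5.78, SE 0.90, adjusted p = 0.000172). These were the genes with the high stage 15 pool. Without that pool the log2 rise was 7.42 for astl3a.1 and 10.32 for astl3a.3, and without the other stage 15 pool it was 3.34 and 4.72, with every adjusted p below the 0.05 threshold.

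The gene astl3b.2 went to 22.3 and 29.8 CPM in stage 25 wild type. As both stage 15 pools were at or under 3 counts, the level was at least 137-fold higher against a floor of 3 counts per library. The stage 25 wild type pools are also those of the contrast by which astl3b.2 was noticed, so this is a description without a p. The gene astl3b.4 went to 23.0 and 33.5 CPM, a 211-fold rise (log2 7.72, SE 0.71, adjusted p = 2.07e-06). Its pools at the earlier stage held only 0 and 4 counts. The rise of astl3c, to 2.51 and 2.76 CPM, was 6.54-fold (log2 2.71, SE 0.71, adjusted p = 0.00727).

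Heterozygotes, whose pools the choice did not use, had 5 of 5 genes called higher at stage 25, where 45.9% of all genes changed and 27.2% rose. The log2 rise was 7.45 for astl3a.1 (SE 0.98, adjusted p = 3.00e-05) and 7.47 for astl3a.3 (adjusted p = 3.75e-05). It was at least 45.2-fold for astl3b.2 (adjusted p = 4.92e-05) and at least 128-fold for astl3b.4 (adjusted p = 1.34e-06), each against the floor of 3 counts per library. For astl3c it was 3.68 on the log2 scale (adjusted p = 0.00198). The single null pool of stage 15 allowed no test, and its values, 59 counts of astl3a.1, 14 of astl3a.3, 0 of astl3b.2 and 3 each of astl3b.4 and astl3c, all lay below those of both stage 25 null pools.

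**Figure D1:**
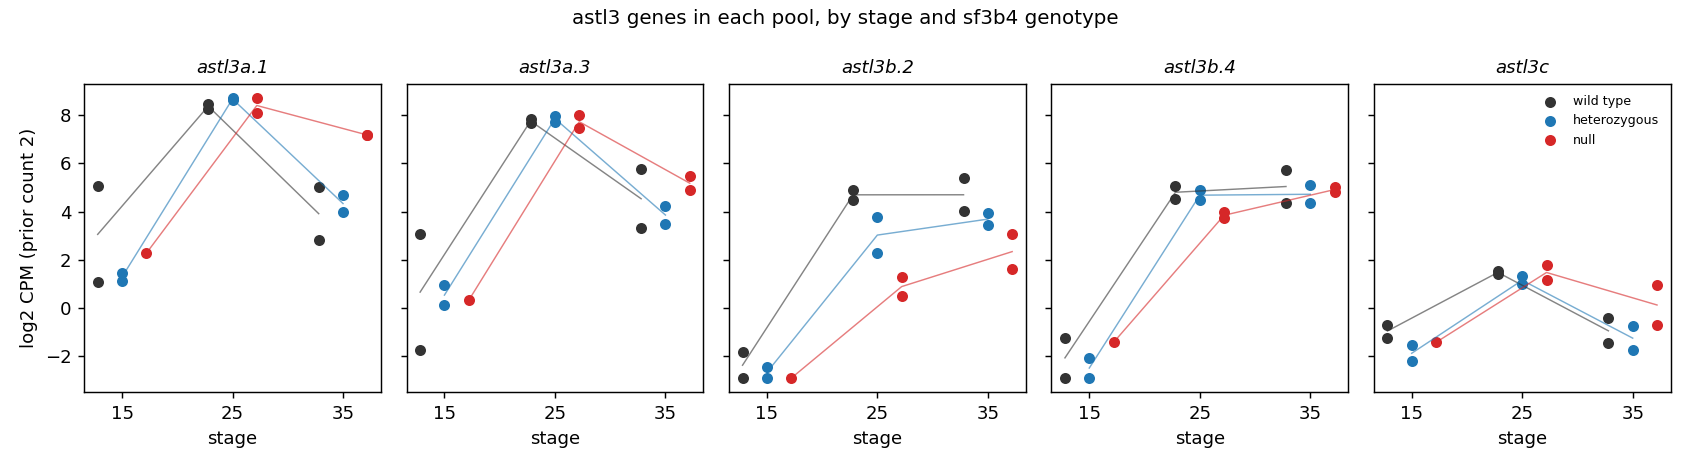
Level of each astl3 gene in every pool, as log2 CPM with a prior count of 2 (vertical axis), by stage (horizontal axis) and sf3b4 genotype (colour). Each point is a pool of 5 embryos and lines join group means. All 5 genes are lower at stage 15 than at stage 25, and the second wild type pool of stage 15 stands above the others in astl3a.1 and astl3a.3. The genes astl3a.1, astl3a.3 and astl3c peak at stage 25. The null points of astl3b.2 lie lowest at stage 25, where that gene was chosen, and at stage 35.

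In wild type, astl3a.1, astl3a.3 and astl3c fell by stage 35, and astl3b.4 was not called, against 47.2% of all genes changed and 22.5% lower. The level of astl3a.1 went from 356 and 311 CPM to 32.1 and 6.89, which was 17.02-fold lower (log2 -4.09, SE 0.81, adjusted p = 0.000798). That of astl3a.3 went from 205 and 230 CPM to 53.8 and 9.77, which was 6.81-fold lower (log2 -2.77, SE 0.75, adjusted p = 0.00707). Without the first stage 35 pool the log2 difference was -5.59 for astl3a.1 (adjusted p = 0.00110) and -4.47 for astl3a.3 (adjusted p = 0.00215), and without the second that of astl3a.1 was -3.38 (adjusted p = 0.0113).

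The gene astl3c was 6.14-fold lower at stage 35 (log2 -2.62, SE 0.72, adjusted p = 0.00755), from 43 and 45 counts to 9 and 3, and without the first stage 35 pool the log2 difference was -3.49 (adjusted p = 0.0169). Leaving out the lower wild type pool of stage 35, the falls of astl3a.3 (log2 -2.01, adjusted p = 0.0620) and astl3c (log2 -2.11, adjusted p = 0.0756) were no longer called. The gene astl3b.2 stood at 41.5 and 15.98 CPM at stage 35, to either side of its stage 25 pools (log2 difference 0.15, SE 0.53, with no p given because the stage 25 pools chose it). The gene astl3b.4 stood at 52.6 and 20.4 CPM, again to either side (log2 difference 0.37, SE 0.41, adjusted p = 0.476). The stage 25 wild type pools are shared with the rise from stage 15, so these comparisons are not independent of one another.

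Heterozygous astl3a.1, astl3a.3 and astl3c also fell between stages 25 and 35, where 47.7% of all genes changed and 22% fell. Their astl3a.1 went from 425 and 395 CPM to 15.7 and 25.5, which was 19.9-fold lower (adjusted p = 0.000548). Their astl3a.3 went from 213 and 254 CPM to 11.1 and 18.5, which was 15.8-fold lower (adjusted p = 0.000905). Their astl3c was 6.51-fold lower (adjusted p = 0.00871), a call that was lost without the second stage 35 pool (adjusted p = 0.0861). The log2 differences of astl3b.2 (0.51, adjusted p = 0.466) and astl3b.4 (0.07, adjusted p = 0.899) missed the threshold.

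In nulls the same interval gave 2 calls among the 4 genes other than astl3b.2, 1 lower and 1 higher, against 44.4% of all genes changed, 21.1% lower and 23.3% higher. Null astl3a.3 fell from 177 and 255 CPM to 44.4 and 29.2 (log2 -2.55, SE 0.74, adjusted p = 0.0118). Null astl3a.1 went from 277 and 416 CPM to 143 and 147, a log2 difference of -1.26 (SE 0.71) that was not called (adjusted p = 0.164). Its stage 35 pools lay close together and below both stage 25 pools. Null astl3c, at 2.09 and 3.30 and then 0.472 and 1.81 CPM, was not called either (log2 -1.26, SE 0.65, adjusted p = 0.124).

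Null astl3b.4 rose from 13.1 and 15.5 to 32.2 and 27.9 CPM (log2 1.07, SE 0.42, adjusted p = 0.0497). Null astl3b.2 stood at 1.28 and 2.26 and then at 8.25 and 2.90 CPM (log2 1.65, SE 0.63). The low stage 25 nulls are the pools by which astl3b.2 was noticed, so its difference is partly set by that choice and is given without a p. Neither of the calls of astl3a.3 and astl3b.4 held in every set of pools. The call of astl3b.4 was lost when any 1 of the 4 pools was left out (adjusted p 0.0988 to 0.184). For astl3b.2 the log2 difference ranged from 0.70 to 2.21, and astl3a.3 lost its call without the second stage 25 pool (adjusted p = 0.0568) or the second stage 35 pool (adjusted p = 0.0970), and by DESeq2's Wald test (adjusted p = 0.0724).

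At stage 25, the contrast that led to the family, astl3b.2 stood at 22.3 and 29.8 CPM in wild type and at 1.28 and 2.26 in nulls, which are 381 and 485 counts against 19 and 37. The null mean of 1.77 ± 0.694 CPM (SD, n = 2) was 14.5-fold below the wild type mean of 26.02 ± 5.33 (SD, n = 2), a log2 difference of -3.86 (SE 0.63). Its neighbour astl3b.4 was the only other member with null pools below both wild type pools, at 14.3 ± 1.69 CPM against 28.2 ± 7.44 (SD, n = 2 each; log2 -0.98, SE 0.42). Over all genes tested 1.78% were called in this contrast. How many of all genes had null pools below both wild type pools was not counted. Nothing is read from either count of members because the contrast chose them.

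The other 3 genes gave stage 25 null pools that overlapped wild type. The log2 difference was 0.06 for astl3a.1 (SE 0.70), -0.01 for astl3a.3 (SE 0.69) and 0.03 for astl3c (SE 0.61). Null astl3a.1 pools, at 277 and 416 CPM, lay on either side of the wild type pools, at 356 and 311. The same held for astl3a.3, at 177 and 255 CPM in nulls against 205 and 230. The summed astl3 level of the stage 25 null libraries (471 and 692 CPM) spanned that of wild type (606 and 609).

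The contrast that chose the family used no stage 35 library, though earlier results of these data were known when the members were chosen. At stage 35, 2 of the 5 genes were called in nulls against wild type, in opposite directions. Of all genes 9.75% were called there, 4.80% higher and 4.95% lower. The gene astl3b.2 had 140 and 40 counts in nulls and 617 and 211 in wild type, or 8.25 and 2.90 CPM against 41.5 and 15.98. The groups did not overlap, and the null mean of 5.57 ± 3.79 CPM was 5.11-fold below the wild type mean of 28.8 ± 18.1 (SD, n = 2 each; log2 -2.35, SE 0.57, adjusted p = 0.0177). The call was lost without the second null pool (log2 -1.80, adjusted p = 0.175) and without the high first wild type pool (log2 -1.51, adjusted p = 0.150).

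The gene astl3a.1 went the other way at stage 35, with 2425 and 2030 counts in nulls and 476 and 91 in wild type, or 143 and 147 CPM against 32.1 and 6.89. Null pools were nearly equal and both above wild type, at 145 ± 2.84 against 19.5 ± 17.8 CPM (SD, n = 2 each). The difference was 7.40-fold (log2 2.89, SE 0.77, adjusted p = 0.0278). It was lost without the first null pool (adjusted p = 0.0981), the second null pool (adjusted p = 0.107) or the second wild type pool (adjusted p = 0.232), and was called without the first wild type pool (adjusted p = 0.0209), with a log2 difference between 2.18 and 4.39 in the 4 cases.

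The remaining members overlapped between stage 35 nulls and wild type. For astl3a.3 the null pools had 44.4 and 29.2 CPM and the wild type pools 53.8 and 9.77 (log2 0.21, SE 0.72, adjusted p = 0.895). For astl3b.4 the null pools had 32.2 and 27.9 CPM and the wild type pools 52.6 and 20.4 (log2 -0.28, SE 0.41, adjusted p = 0.727). For astl3c the counts were 8 and 25 against 9 and 3 (log2 1.39, SE 0.74, adjusted p = 0.267). Over the 5 genes the median log2 difference was 0.21, beside -0.03 over all genes tested.

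Whether the difference between null and wild type changed from stage 25 to stage 35 was tested directly, a test added after the values were seen, in which 0.141% of all genes were called. It gave 0 of the 4 genes other than astl3b.2 at the adjusted threshold, and 1 of the 4, astl3a.1, at an unadjusted p under 0.05. The share of all genes with such an unadjusted p in this test was not counted, so nothing is read from that count. The log2 difference of astl3a.1 moved by 2.83 (SE 1.03, unadjusted p = 0.0144, adjusted p = 0.387). That of astl3b.2 moved by 1.51 (SE 0.82) towards 0, with no p given because stage 25 chose it. A change of the null difference between stages was therefore not shown for any astl3 gene.

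**Figure D2:**
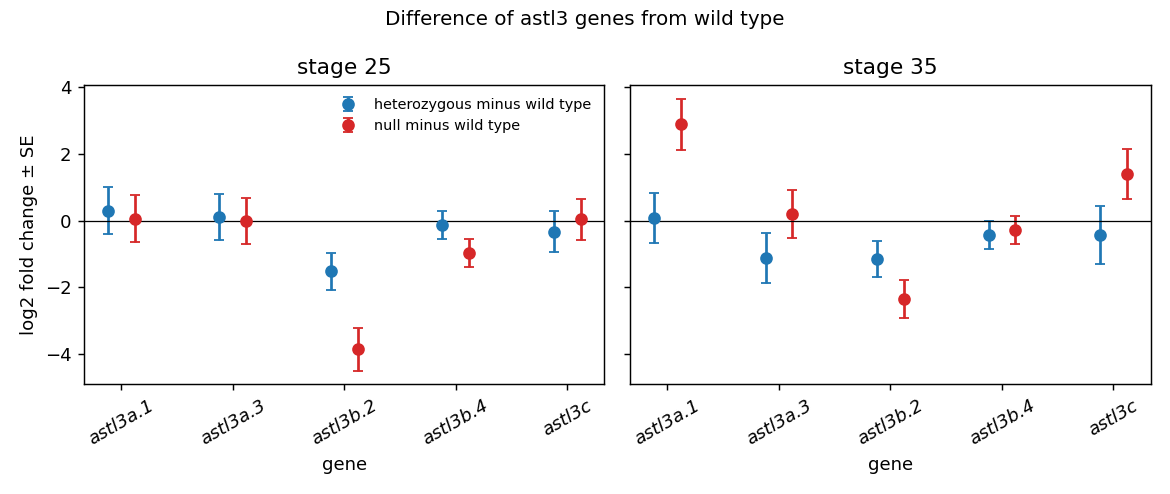
Difference from wild type of each astl3 gene at stage 25 (left) and stage 35 (right), as log2 fold change (vertical axis) with bars of 1 SE from the edgeR fit; blue points are heterozygotes and red points nulls, 2 pools a group. Values for astl3b.2 lie below 0 in both genotypes at both stages, from -1.16 to -3.86, with the stage 25 null value the one that chose the gene. Null astl3a.1 lies at 0.06 and then 2.89.

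Heterozygotes gave no call against wild type in the astl3 genes at any stage, in a fit that called 0% of all genes at stage 15, 0% at stage 25 and 0.00564% (1 gene) at stage 35. By DESeq2's Wald test the count of astl3 calls was also 0 at each stage. Of the 17742 genes tested by edgeR, 824 at stage 15, 502 at stage 25 and 235 at stage 35 had an unadjusted p under 0.05. At stage 15, 1 of the 5 genes had an unadjusted p under 0.05: astl3a.1, at 25 and 49 counts in heterozygotes against 36 and 451 in wild type (log2 -2.87, unadjusted p = 0.00588, adjusted p = 0.884). The second wild type pool alone set it apart, and the count of calls was 0 without that pool and 1 without the other. At stage 25, 0 of the 4 genes other than astl3b.2 had an unadjusted p under 0.05, and at stage 35, 1 of the 5 did, astl3b.2.

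Heterozygous astl3b.2 lay below wild type in every pool at stages 25 and 35. At stage 25 it had 4.70 and 13.5 CPM, a mean of 9.09 ± 6.20 against 26.02 ± 5.33 (SD, n = 2 each; log2 -1.52, SE 0.55), and no p is given because the wild type pools are those of the choosing contrast. At stage 35 it had 10.8 and 15.0 CPM, a mean of 12.9 ± 2.98 against 28.8 ± 18.1 (log2 -1.16, SE 0.54, unadjusted p = 0.0498, adjusted p = 1). Without the high first wild type pool the log2 difference was -0.31. At stage 35 the order of the astl3b.2 group means was wild type, heterozygous, null, with groups that did not overlap. How many of all genes had such separate groups was not counted. The order at stage 25 was the same. Its null and wild type ends are the contrast that chose the gene, so nothing is read from that order. At stage 35 the lower wild type pool, at 15.98 CPM, and the higher heterozygous pool, at 15.0, were nearly level.

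Nulls were also set against heterozygotes, which share the null pools with the contrasts above. At stage 25 edgeR called 0 of the 4 genes other than astl3b.2, where 0.0676% of all genes were called. An unadjusted p under 0.05 was held by 0 of the 4 and by 1707 of the 17742 genes tested. DESeq2's Wald test likewise called 0 of these 4. The log2 difference of astl3b.2 was -2.34 (SE 0.62), with both null pools below both heterozygous pools, and is given without a p. That of astl3b.4 was -0.85 (SE 0.42, adjusted p = 0.551), at 13.1 and 15.5 CPM against 21.9 and 29.6. The share of all genes with such separate pools was not counted.

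At stage 35 nulls against heterozygotes gave 1 call among the 5 genes, where 6.98% of all genes were called. Without the low-count filter there were 3 calls, among them astl3b.2 (adjusted p = 0.0379), and the share of all genes in that fit is not given here. The gene astl3a.1 was 7.05-fold higher, at 143 and 147 CPM against 15.7 and 25.5 (log2 2.82, SE 0.77, adjusted p = 0.0393). The call was lost when any 1 of the 4 pools was left out (log2 2.51 to 3.21, adjusted p 0.119 to 0.275). Null pools lay above heterozygous pools also in astl3a.3 (log2 1.32, SE 0.75, adjusted p = 0.340) and in astl3c (log2 1.81, SE 0.79, adjusted p = 0.196). They lay below them in astl3b.2 (log2 -1.19, SE 0.56, unadjusted p = 0.0511, adjusted p = 0.239). The share of all genes with separate pools in this contrast was not counted.

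As the wild type pools of stage 35 differed in the level of the whole family, the genes were also set against their neighbours within each library, which cancels a level shared by both. These ratios of counts were formed after the values were seen, are not per length, and carry no test. The ratio of astl3b.2 to astl3b.4 at stage 25 was 0.969 and 0.890 in wild type, 0.214 and 0.455 in heterozygotes and 0.0979 and 0.146 in nulls. At stage 35 it was 0.790 and 0.784 in wild type, 0.538 and 0.439 in heterozygotes and 0.256 and 0.104 in nulls. The stage 35 wild type pools that differed 2.60-fold in astl3b.2 were thus level in its ratio to astl3b.4. Genotypes did not overlap at stage 35. For how many pairs of genes this held was not counted. The genotypes did not overlap at stage 25 either. There the astl3b.2 counts of nulls and wild type are those that chose the gene, so nothing is read from that separation.

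The ratio of astl3a.1 to astl3a.3 at stage 25 lay between 1.35 and 2.001 in all 6 libraries of the stage, with the genotypes overlapping. At stage 35 it was 0.596 and 0.705 in wild type, 1.41 and 1.38 in heterozygotes and 3.22 and 5.02 in nulls. Genotypes that were mixed at stage 25 were separate at stage 35, with the heterozygotes between the others. Again, the number of gene pairs with such separate groups was not counted. Reads shared between copies enter both parts of such a ratio, and their part in it was not tested.

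**Figure D3:**
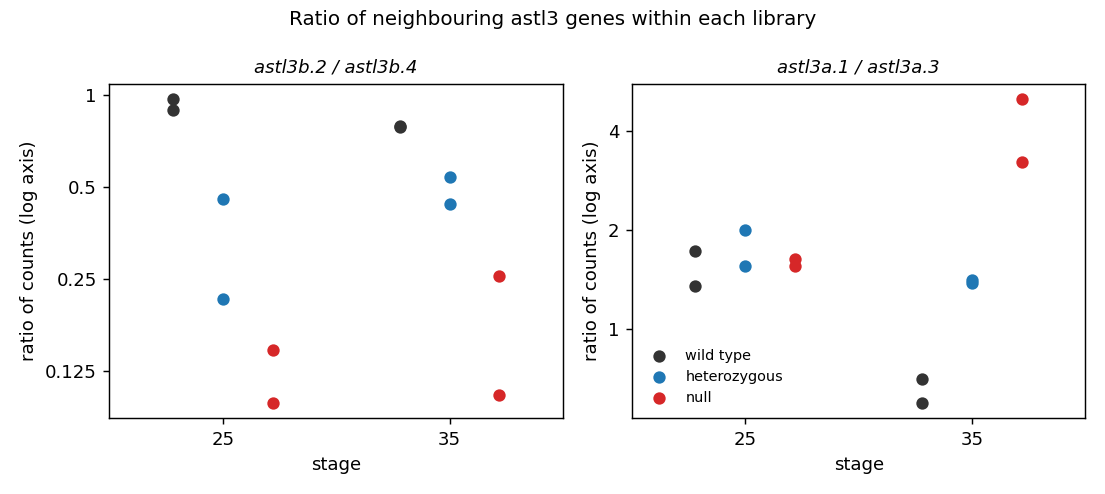
Ratio of counts of astl3b.2 to astl3b.4 (left) and of astl3a.1 to astl3a.3 (right) within each library at stages 25 and 35, on log axes; each point is a pool and colours are genotypes. The left ratio is lowest in nulls at both stages, at most 0.256, and stage 25 holds the contrast that chose astl3b.2. The right ratio separates the genotypes at stage 35 and not at stage 25. The 2 wild type points of stage 35 on the left, at 0.790 and 0.784, coincide.

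Across the 17 libraries the closest members were neighbours. Pearson's r of log2 CPM was 0.95 between astl3a.1 and astl3a.3 and 0.94 between astl3b.2 and astl3b.4, and between the pairs it was 0.60 (astl3a.1 with astl3b.2), 0.73 (astl3a.3 with astl3b.2), 0.74 (astl3a.1 with astl3b.4) and 0.83 (astl3a.3 with astl3b.4). It was 0.44 between astl3b.2 and astl3c. The like pairs are neighbours that may share reads, and all of these values are largely set by the rise after stage 15 that the libraries share. The gene astl3c, the last of the cluster, was more like astl3a.1 (r = 0.88) than like its neighbour astl3b.4 (r = 0.56).

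Of 13249 genes ranked by likeness to astl3b.2 in the same 17 libraries, the first 5 were tmem120b (r = 0.97), ttc39b (r = 0.96), trpm1 (r = 0.96), cyp2a6.1 (r = 0.95) and rps6ka1 (r = 0.95). The gene trpm1, for a cation channel of melanocytes and retinal bipolar cells, was the one with the largest null difference among them. It had 19.2 and 19.4 CPM in stage 25 wild type and 8.97 and 6.97 in nulls (log2 -1.28, SE 0.29). At stage 35 it had 25.5 and 32.6 CPM in wild type and 15.0 and 9.63 in nulls (log2 -1.24, SE 0.29). The gene cyp2a6.1, named for the cytochrome P450 family, was lower in both null pools at stage 35 (log2 -0.997, SE 0.25), and the other 3 had log2 differences between -0.56 and -0.12 at the 2 stages. These genes were picked for their likeness in these libraries, so no p is given.

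Genes beside the members were looked at as well. The non-coding RNA LOC116406599, which lies within the span of astl3b.2 and cannot be told from it where reads overlap without regard to strand, had 37 and 74 counts in stage 25 wild type, 22 and 38 in heterozygotes and 0 and 11 in nulls. At stage 35 it had 38 and 20 counts in wild type, 12 and 9 in heterozygotes and 7 and 8 in nulls (log2 -2.04 for null against wild type, SE 0.88, adjusted p = 0.170). Its null pools lay below the pools of both other genotypes at each stage, at low counts, and at stage 25 the heterozygous pools overlapped wild type. As it may share reads with astl3b.2, its stage 25 values are not independent of the contrast that chose that gene. How many of all genes had such separate pools was not counted. The genes that flank the cluster on either side, LOC101733690 and LOC100491613, gave log2 differences at stage 35 of -0.70 (adjusted p = 0.177) and -0.80 (adjusted p = 0.395).

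On the chromosome of the cluster and of sf3b4, 56 of 2026 genes tested, 2.76%, were called at stage 25 in nulls against wild type, beside 259 of 15715 elsewhere, 1.65%. At stage 35 the shares were 11.6% (235 genes) and 9.51% (1495 genes). The part of the shared chromosome in the values of the astl3 genes was not tested.

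The astl2 genes, another set of astacin-like genes, were set beside them. Of the 10 genes 8 were tested. Between stages 15 and 25 in wild type 3 rose and 3 fell, where 23.4% of all genes tested rose and 16.9% fell. Between stages 25 and 35 all 8 tested fell, where 22.5% of all genes did. The hatching enzyme gene astl2c went from 893 and 413 CPM at stage 15 in wild type to 65.4 and 9.40 at stage 25 and to 0 and 4 counts at stage 35. At stage 25 it stood at 20.6 and 12.7 CPM in heterozygotes and 24.7 and 57.4 in nulls, and at stage 35 neither genotype had over 7 counts. The summed astl2 level was 468 to 749 CPM over the 6 libraries of stage 25 and 2.35 to 23.96 CPM over those of stage 35, while the summed astl3 level rose from at most 42.0 CPM at stage 15 to at least 471 at stage 25 and was 53.2 to 228 at stage 35.

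In nulls against wild type edgeR called 0 of 8 astl2 genes at stage 25, beside 1.78% of all genes. An unadjusted p under 0.05 was held by 0 of the 8 and by 2423 of the 17742 genes tested. The median log2 difference of the 8 was 0.18, beside 0.00 over all genes. At stage 35 edgeR called 1 of the 8, beside 9.75% of all genes. This gene, astl2d.2, was higher in nulls, at 37 and 293 counts against 9 and 7 (log2 4.32, SE 0.88, adjusted p = 0.00692). The value rests largely on the second null pool. Of the stage 35 genotypes, nulls had the highest summed levels of both sets, at 209 and 228 CPM for astl3 and 10.9 and 23.96 for astl2. Most of the astl3 sum in nulls was astl3a.1, at 62.6% and 70.4%. The gene astl2d.2 alone gave 2.18 CPM of the astl2 sum in the first null pool and 21.2 in the second. The wild type pools stood at 181 and 53.2 CPM for astl3 and between 2.35 and 10.1 for astl2, and the heterozygotes at 58.1 and 93.2 for astl3 and 2.83 and 3.16 for astl2.

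**Figure D4:**
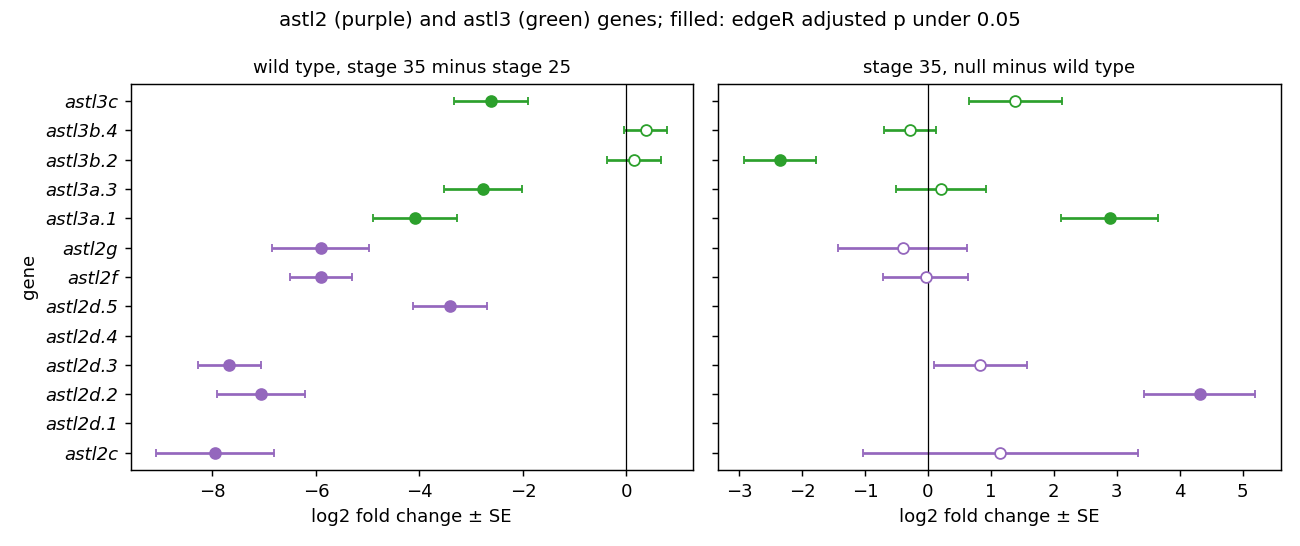
Log2 fold change with bars of 1 SE (horizontal axis) of each tested astl2 gene (purple) and astl3 gene (green), in wild type from stage 25 to stage 35 (left) and in stage 35 nulls against wild type (right), 2 pools a group; filled points have an edgeR adjusted p under 0.05. Genes with at most 3 counts in every pool of a group are left out of that panel; the astl2 genes shown on the left all fell, astl3b.2 and astl3b.4 sit near 0, and on the right astl3b.2 lies at -2.35, astl3a.1 at 2.89 and astl2d.2 at 4.32.

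Of the astacins outside the astl3 cluster as a whole, 13 of 16 were tested. In nulls against wild type 1.78% of all genes were called at stage 25 and 9.75% at stage 35. Unadjusted p-values under 0.05 were held by 2423 of 17742 genes at stage 25 and 4360 at stage 35. Of the 13 astacins edgeR called none at stage 25, where 1 had an unadjusted p under 0.05. At stage 35, 4 of the 13 had an unadjusted p under 0.05. Of these edgeR called 1 higher, astl2d.2, and 1 lower, bmp1, which cleaves chordin and procollagens. The level of bmp1 was 42.0 and 45.5 CPM in nulls and 94.8 and 96.5 in wild type (log2 -1.13, SE 0.17, adjusted p = 0.000890). The median log2 difference of the 13 genes at stage 35 was 0.43, or 0.01 with genes at or under 3 counts in a group set to their bounds, beside -0.03 over all genes. Of the 11 genes on the tolloid pathway, which hold bmp1, the tolloids, chordin and BMP ligands, none was called at stage 25 (1 at an unadjusted p under 0.05). At stage 35, 1 fell, bmp1, and 1 rose, bmp4, from 70.5 and 74.5 to 106 and 116 CPM (log2 0.62, adjusted p = 0.0283). An unadjusted p under 0.05 was held by 5 of the 11 at that stage. The median of that list was 0.88, or 0.75 with a gene under the floor left out, so its sign is opposite to that of bmp1.

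Markers of the surface cells in which such proteases can be made were counted beside them. In nulls against wild type 1.78% of all genes were called at stage 25 and 9.75% at stage 35. An unadjusted p under 0.05 was held by 2423 and 4360 of the 17742 genes tested at these stages. None of 6 genes of the hatching gland and neural plate border, among them klf17 and pax3, was called by edgeR in nulls at stage 25 or 35, and 0 and 2 of them had an unadjusted p under 0.05. Their median log2 difference at stage 35 was 0.56. Their summed level at stage 35 was 483 to 493 CPM in nulls and 379 to 400 in wild type, and astl2c, the marker that defines the gland, was near 0 in both. None of 10 genes of surface ectoderm cell types was called at either stage (0 and 4 at an unadjusted p under 0.05), with a median of 0.62 at stage 35 and a summed level of 815 to 888 CPM in nulls and 304 to 639 in wild type. Most of that sum was itln1, a goblet cell lectin, at 761 and 683 CPM in nulls and 505 and 197 in wild type, while tp63, a basal cell factor, was lower in nulls (log2 -0.52, adjusted p = 0.0549). None of 6 cement gland genes was called either (0 and 1 at an unadjusted p under 0.05), with a median of -0.23 and sums of 217 to 230 and 233 to 272 CPM. The part of these cells in the astl3 values was not tested.

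The egg envelope genes, which encode the zona pellucida proteins of the coat that hatching enzymes digest, gave 2 calls of 5 at stage 35, beside 9.75% of all genes called, and none at stage 25, where 0 had an unadjusted p under 0.05. The median log2 difference of the 5 at stage 35 was 0.99. Both were higher in nulls. The gene zp4 had 78 and 45 counts in nulls against 28 and 17 in wild type (log2 1.30, adjusted p = 0.0202), and zpax had 35 and 15 against 7 and 4 (log2 2.01, adjusted p = 0.0130). In wild type all 5 of these genes fell between stages 25 and 35, where 22.5% of all genes tested fell. At stage 35 the summed level was 5.86 to 9.31 CPM in nulls and 2.27 to 4.98 in wild type.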

How the data were processed

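The authors deposited raw read counts per gene, 1 table per library, per the file headers. Demultiplexing with bcl2fastq 2.20 and alignment with STAR are named in the submitters' processing notes. The genome build, the counting rule for shared reads and the use of strand are not given in the sources used here. Library preparation was stranded and polyA-selected, per the labels' protocols. Of the 26531 gene names, 26530 matched a RefSeq symbol.

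Genes were kept by filterByExpr (minimum count 10, minimum total 15) on the 16 libraries of the 8 groups with 2 pools, which left 17742 genes. Counts were scaled by TMM and fitted with group means (8 residual degrees of freedom) by edgeR 4.0.16 in R 4.3.3; p-values were adjusted over all genes tested and called at 0.05. The SE is the log2 fold change divided by the root of F. DESeq2 1.42.0, its size factors, no filter, fewer libraries, a replicate block and left-out pools were alternatives. The fit was tested on simulated data. Printed CPM use library totals scaled by TMM. All astl3 genes, list genes called in nulls (at most 6 per list) and the 5 genes most like astl3b.2 (mean log2 CPM of at least 1) were named. The members and lists were chosen with earlier results of these data known.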

Additional observations from a re-analysis of the deposited data

How the results depend on the processing

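The counts of astl3 genes called moved in these cases. A count that differed little from the main one, with both above 0, was not taken as moved. Without the low-count filter there was 1 call in heterozygotes against wild type at stage 15, 1 in nulls against heterozygotes at stage 25 and 3 in nulls against heterozygotes at stage 35. With only the libraries of the stages compared there were 2 calls in nulls against wild type and 1 in nulls against heterozygotes at stage 25, and DESeq2's Wald test also gave 1 for the latter. The cause was not tested. The share of all genes called was not set beside the counts of this paragraph, so nothing is read from them about the astl3 genes. The counts are over all 5 genes, and nothing is read from those at stage 25 in nulls against wild type or heterozygotes, whose pools chose astl3b.2. With 1 pool left out the count ranged from 0 to 1 in heterozygotes against wild type at stage 15, from 0 to 1 at both later stages in nulls against wild type, from 0 to 0 in nulls against heterozygotes at stage 35, from 0 to 2 in nulls between stages 25 and 35, from 1 to 3 in wild type and from 2 to 3 in heterozygotes over the same interval. Such a fit leaves 1 group with a lone pool, assumed to vary like the others.

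The values that changed sign were those of comparisons that were not called. For astl3a.3 in stage 25 nulls against wild type the log2 difference was 0.01 with DESeq2 size factors (0.0102) and by DESeq2's Wald test (0.00996). With 1 pool left out it ranged from -0.29 to 0.23 for that gene, from -0.27 to 0.32 for astl3a.1 and from -0.33 to 0.32 for astl3c in the same contrast, from -0.54 to 1.92 for astl3a.3 and from -0.81 to 0.56 for astl3b.4 in stage 35 nulls against wild type, and from -0.0643 to 1.45 in heterozygotes and from -0.70 to 0.68 in wild type for astl3b.2 between stages 25 and 35.

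The replicate numbers were used only as names of pools in the main fit. Same-numbered pools had correlations of deviations between -0.37 and 0.10, and whether pools shared a source was not tested. With the replicate block, 12 of 12 counts, such as 2 in stage 35 nulls against wild type, did not move by the rule given above. Crossing the wild type numbers gave 0 calls in heterozygotes at stages 15 and 35, as before. Depth limits the stage 15 values of astl3b.2 and astl3b.4, at 0 to 4 counts.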
